A study of Rattus norvegicus with 12 samples.

Results

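The annexin genes of the array were described across cultured rat small hepatocytes and freshly isolated rat hepatocytes. The members were all probes whose gene name in the scanner files was Anxa1, Anxa2, Anxa3, Anxa4, Anxa5, Anxa6, Anxa7, Anxa8, Anxa10 or Anxa11. They came to 12 probes for 10 genes, of 45598 probes for 35906 gene names, and took 24 of the 58717 non-control spots of each array. Anxa3 and Anxa10 had 2 probes each, and the Anxa1 probe was printed in 10 spots.

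Each of the 12 arrays was hybridised with RNA of a single sample, and each of the 4 groups had 3 arrays (Agilent, Cy3 only). Small hepatocytes are progenitor-like liver cells that grow in colonies. Per the labels, they were taken from F344 rats (described as a DPPIV+ strain) by collagenase perfusion, plated in medium without serum, sorted with magnetic beads for the surface protein CD44 after 9 days and then grown on Matrigel, a basement membrane extract. Cells of passage 2 were collected after 3 h on dishes coated with the laminins LN111 or LN511 or with Matrigel (Mat). Mature hepatocytes (MH) from fresh livers, neither passaged nor cultured on a coating, were the control. The culture medium held dexamethasone, a glucocorticoid, EGF at 10 ng/mL, nicotinamide at 10 mM, insulin, transferrin and selenium. All 3 cultured groups therefore shared the CD44 sort, the passages and the medium, and a difference from MH covers all of them together. Animal ages are not given in the sources used here. Whether replicates were separate animals or cultures is not in the labels, and the p-values reflect only how far these samples scatter, part of which may be technical.

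Annexins are cytosolic proteins that bind negatively charged phospholipids, above all phosphatidylserine, when calcium rises. They act in membrane repair, vesicle traffic and the link between membranes and the actin cytoskeleton, and several pair with small calcium-binding proteins of the S100 family. In liver, annexin A6 is a major annexin of the mature hepatocyte, and annexin A3 has been linked to DNA synthesis in cultured rat hepatocytes.

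The probes were 60 bases long, and the sequences show how far probes of different annexins are alike. For 64 pairs of probes of different genes, the best gap-free alignment had 16 to 25 identical bases (median 21). The Anxa5 probe and an Anxa10 probe shared 24 bases of a 43-base overlap. They are shown, with the identical bases in capitals, as an example of how alike probes of different annexins are. The files place them at chr2:122950184-122950243 (minus strand, Anxa5) and chr16:30778599-30779329 (plus strand, Anxa10), with rat build rn4 named in the file headers. The build of these coordinates rests on that header alone. The Anxa10 interval spans 731 bases for a probe of 60. Exon numbers were not used here.
Anxa5 probe A_44_P472994: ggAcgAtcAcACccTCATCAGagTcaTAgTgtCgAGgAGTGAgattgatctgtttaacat
Anxa10 probe A_44_P265003: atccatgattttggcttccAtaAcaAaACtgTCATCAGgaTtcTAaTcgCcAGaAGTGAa
Of the 12 arrays, all measured the Anxa5 probe well above background and none this Anxa10 probe.

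Promoters of 9 of the 10 genes were matched in the RefSeq table supplied (build GRCr8), and the 250 bases before the annotated start are printed for 3 genes that were far higher in cultured cells and for Anxa10, which was not. Capitals mark the motif TATAAA, searched on both strands as the TATA box, and the motif TGANTCA, which reads the same on both strands, as the AP-1 element. The positions were chr1:227303733-227303982 (minus strand) for Anxa1, chr8:78986002-78986251 (plus strand) for Anxa2, chr2:121272697-121272946 (minus strand) for Anxa5 and chr16:32504775-32505024 (plus strand) for Anxa10.
Anxa1: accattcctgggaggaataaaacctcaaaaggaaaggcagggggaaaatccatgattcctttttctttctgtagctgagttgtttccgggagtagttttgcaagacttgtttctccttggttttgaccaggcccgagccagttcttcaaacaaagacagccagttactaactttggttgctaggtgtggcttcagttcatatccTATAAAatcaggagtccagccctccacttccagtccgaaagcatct
Anxa2: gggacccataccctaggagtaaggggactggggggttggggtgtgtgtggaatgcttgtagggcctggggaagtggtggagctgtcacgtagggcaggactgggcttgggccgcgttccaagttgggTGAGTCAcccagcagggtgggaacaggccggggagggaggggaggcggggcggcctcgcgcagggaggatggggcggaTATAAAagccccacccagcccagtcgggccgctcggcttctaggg
Anxa5: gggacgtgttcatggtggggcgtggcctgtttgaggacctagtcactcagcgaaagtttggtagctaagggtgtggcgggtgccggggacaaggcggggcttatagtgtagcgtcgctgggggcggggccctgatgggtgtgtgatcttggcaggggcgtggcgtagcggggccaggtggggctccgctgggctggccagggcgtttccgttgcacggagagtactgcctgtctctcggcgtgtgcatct
Anxa10: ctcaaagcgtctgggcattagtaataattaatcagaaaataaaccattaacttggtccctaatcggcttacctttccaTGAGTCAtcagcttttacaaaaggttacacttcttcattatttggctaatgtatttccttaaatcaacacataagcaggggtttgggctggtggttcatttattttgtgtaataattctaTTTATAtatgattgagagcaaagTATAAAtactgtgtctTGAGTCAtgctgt
TATAAA stood in 3 of the 9 annexin promoters, against 12.9% of 33469 promoters in the table. It began 46 bases before the start in Anxa1 and 45 bases before it in Anxa2, and Anxa10 held it on both strands. TGANTCA stood in 2 of the 9, Anxa2 (123 bases before the start) and Anxa10, against 6.34% of all. GGGCGG (a GC box, both strands) stood in 5 of 9 against 30.5%, CCAAT in 2 of 9 against 34%, and TGTTCT, part of the glucocorticoid receptor's element, in none of the 9 against 17.5%. GC content ran from 34% in Anxa10 to 69.2% in Anxa11, with a median of 51.2% over all promoters. Of the printed genes far higher in culture, Anxa2 held both marked motifs, Anxa1 TATAAA alone and Anxa5 neither. Anxa10, not above background in culture, held both. Whether the motifs bear on the signals was not tested.

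Signals are given as log2 of the detrended intensity minus the array's 75th percentile, so a probe at 0 lies at that percentile and a step of 1 is a 2-fold change. Between 52.18% and 62.75% of the spots were well above background on each array, and no spot was saturated. The 75th percentile itself was 757 to 961 intensity units on MH arrays and 1130 to 3090 on cultured arrays, a gap that the scaling removes. LN111 replicate 3 was noisier than the rest, with 1126 outlier spots against 350 to 499. Slide 1 held Mat replicates 1 and 2 and all MH arrays, and slide 2 held the LN111 and LN511 arrays and Mat replicate 3, so slide and group cannot be told apart for LN111 or LN511 against MH except through the Mat arrays. LN111 or LN511 against Mat also crosses slides for Mat replicates 1 and 2. Differences are from limma with their standard error (SE), 2-sided and adjusted by Benjamini-Hochberg over every probe tested. The word cultured stands for the average over the 3 coated groups.

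**Figure D1:**
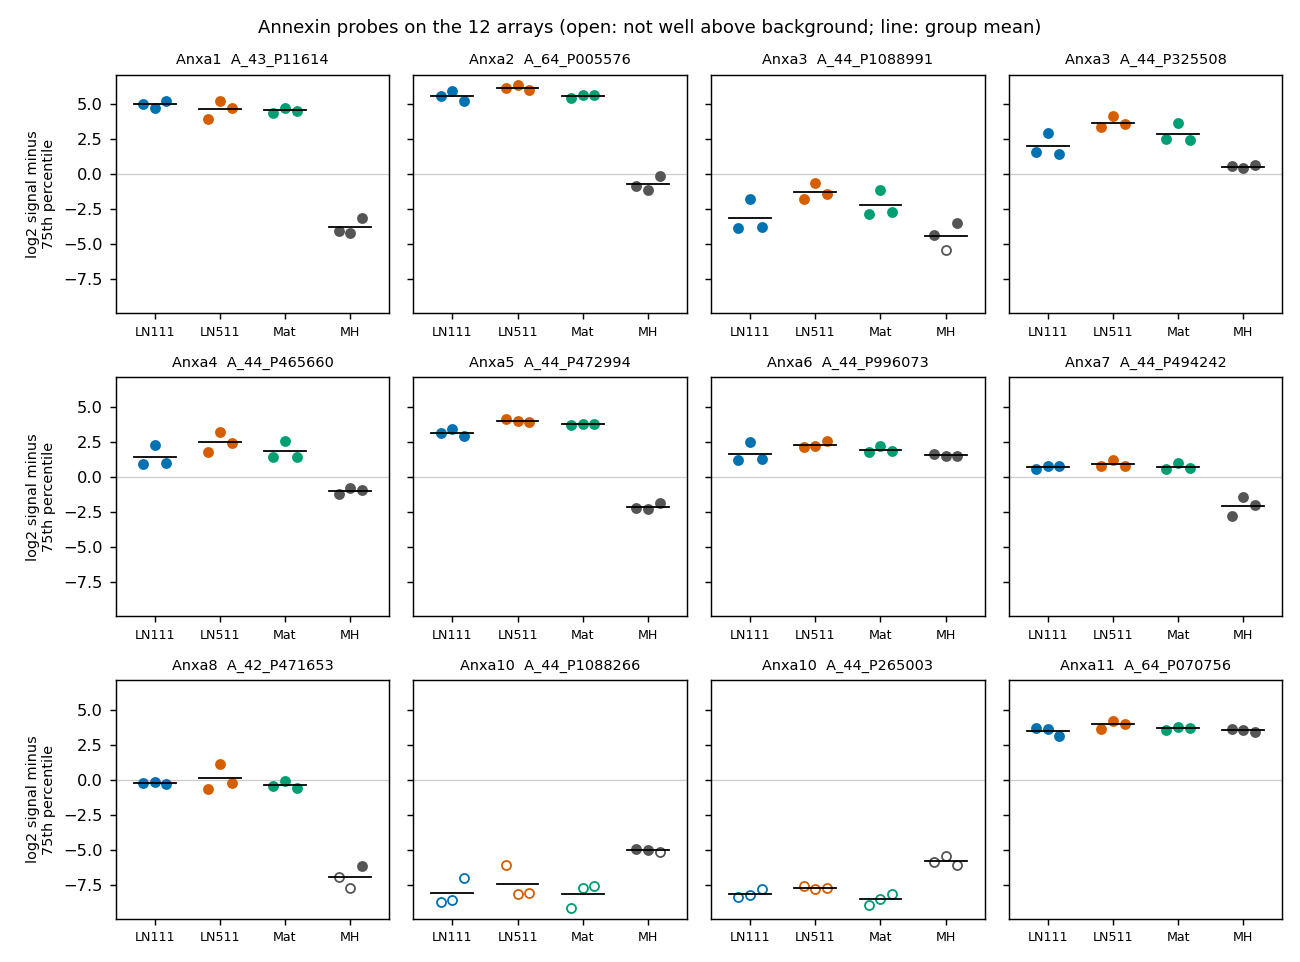
Signal of each annexin probe (y axis, log2 of the processed signal minus the array's 75th percentile) on the 3 arrays of each group (x axis). Filled points were well above background and open points were not, and lines are group means. Anxa1, Anxa2, Anxa5 and Anxa8 stood far above MH in all 3 cultured groups, Anxa6 and Anxa11 lay close to MH, and both Anxa10 probes were open in all cultured groups.

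Of the 12 probes, 10 passed the filter (3 of 3 arrays well above background in 1 group or more), and both Anxa10 probes did not. Against MH, 8 of the 10 rose in the cultured cells and none of the 10 fell, covering 7 of 9 genes (Anxa1, Anxa2, Anxa3, Anxa4, Anxa5, Anxa7 and Anxa8). The Anxa10 probes, left out of this count, averaged -7.92 and -8.15 in culture and -5.02 and -5.80 in MH. With no filter, 10 of 12 annexin probes were called, both Anxa10 probes among them and lower in culture. In that fit 28611 of all 45489 probes were called, 7537 higher and 21074 lower. In the filtered fit, 72.4% of all 23656 probes tested were called, 31.2% being higher and 41.2% lower in cultured cells. Higher probes were 43.1% of these calls, against 25.6% with normexp background correction, 56.2% with quantile normalization and 78.5% with no scaling. A call as such was therefore common on these arrays. The direction and the size set the annexins beside the rest: the median difference was 2.89 for the 10 annexin probes and -0.16 for all probes tested. The filter bears on this direction. Anxa8 and Anxa3 probe A_44_P1088991 entered through the cultured groups, with 1 and 2 of 3 MH arrays above background, while Anxa10 was left out. With the strict filter, which also dropped those Anxa8 and Anxa3 probes, 6 of 8 annexin probes were called. Of all 15763 probes tested there, 11317 were called, 3848 higher and 7469 lower (median -0.30). Substrate by substrate, 7 of 10 annexin probes rose on LN111 (of all probes, 66.2% were called, 27.1% higher and 39.1% lower), 8 on LN511 (67.1%, 31.5% and 35.6%) and 8 on Mat (66.5%, 26.3% and 40.2%). These comparisons share the same 3 MH arrays.

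Anxa1, Anxa2 and Anxa5 had the largest differences among the annexins measured on every MH array, and Anxa8, mostly not above background in MH, was far higher too. Anxa1 encodes annexin A1, a glucocorticoid-regulated inhibitor of phospholipase A2 and ligand of formyl peptide receptors. Its value was 5.04, 4.78 and 5.27 on LN111, 3.94, 5.27 and 4.76 on LN511, 4.42, 4.77 and 4.52 on Mat, and -4.07, -4.22 and -3.14 on MH. No cultured array came near an MH array. The difference was 8.56 ± 0.29 (SE), about 378-fold, with a limma adjusted p of 4.05e-09. With normexp background correction it was 7.54, so the fold depends on how the low MH signals are treated. The level was alike on the 3 substrates, with means from 4.57 ± 0.18 (SD, n = 3) on Mat to 5.03 ± 0.24 on LN111.

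Anxa2 encodes annexin A2, which pairs with S100A10 at the cell surface and there binds plasminogen and its activator. It read 5.61, 5.96 and 5.22 on LN111, 6.15, 6.37 and 6.05 on LN511, 5.50, 5.66 and 5.70 on Mat, and -0.84, -1.12 and -0.12 on MH. Every cultured array was far above every MH array, and the 3 LN511 arrays were the highest of the 12. The difference from MH was 6.49 ± 0.21, about 90-fold (limma adjusted p = 3.04e-09).

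Anxa5 encodes annexin A5, the phosphatidylserine binder used to stain dying cells. Its values were 3.17, 3.42 and 2.93 on LN111, 4.14, 4.0 and 3.95 on LN511, 3.74, 3.84 and 3.78 on Mat, and -2.24, -2.31 and -1.84 on MH. The 3 substrates did not overlap, with LN511 highest and LN111 lowest. The difference from MH was 5.80 ± 0.14, about 55.6-fold (limma adjusted p = 5.64e-10).

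Anxa8 encodes annexin A8, a close relative first described as an anticoagulant protein of vessels. The 9 cultured arrays ran from -0.62 to 1.14 with a median of -0.19, and LN511 replicate 2 was the one clearly above the rest. In MH the probe read -6.93, -7.73 and -6.13 and was well above background on 1 of 3 arrays. It was higher in culture (limma adjusted p = 9.51e-08), but the size of the difference is not settled by these MH signals: it was 6.78 ± 0.38 as measured, 5.16 with low signals raised to background and 3.57 with normexp background correction.

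Anxa4, Anxa7 and Anxa3 had smaller differences. Anxa4, an annexin of secretory epithelia, read 0.91, 2.31 and 1.03 on LN111, 1.81, 3.22 and 2.48 on LN511, 1.46, 2.59 and 1.47 on Mat, and -1.22, -0.76 and -0.95 on MH. Within each substrate, replicate 2 was the highest array, and all cultured arrays were above MH. The difference was 2.90 ± 0.38 (limma adjusted p = 5.66e-05).

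Anxa7 encodes annexin A7 (synexin), known for the fusion of secretory granules. It was even across the cultured arrays, from 0.59 to 1.25 with a median of 0.79, and more spread in MH, at -2.79, -1.42 and -1.99. The difference was 2.88 ± 0.24 (limma adjusted p = 2.03e-06). RefSeq lists 4 pseudogenes of Anxa7 and 1 of Anxa2, and whether their transcripts add to these signals was not tested.

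Both Anxa3 probes rose. Probe A_44_P325508 read 1.58, 2.97 and 1.45 on LN111, 3.37, 4.14 and 3.6 on LN511, 2.50, 3.69 and 2.49 on Mat, and 0.56, 0.44 and 0.63 on MH. Probe A_44_P1088991 read -3.88, -1.75 and -3.77 on LN111, -1.75, -0.61 and -1.45 on LN511, -2.86, -1.10 and -2.72 on Mat, and -4.36, -5.43 and -3.51 on MH. The pattern over the arrays was the same for both: LN511 highest, replicate 2 the highest array of each substrate, and LN111 replicates 1 and 3 closest to MH. The second probe was not well above background on MH replicate 2, and LN111 and MH overlapped there.

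Against MH, the Anxa3 differences were 2.33 ± 0.35 (limma adjusted p = 0.000164) and 2.23 ± 0.57 (0.0051). On LN111 alone the first probe was 1.46 ± 0.43 above MH (0.0127) and the second 1.30 ± 0.70 above it (0.125). The LN111 call of the first probe was lost with slide as a block (2.07, adjusted p = 0.0612). For the second probe, the Mat call (2.21, 0.0173) was lost without Mat replicate 2 (1.65, 0.0698), without MH replicate 2 (1.71, 0.0699) and with normexp (0.98, 0.098). With normexp its difference over all cultured arrays was 1.09 (0.0315), against 2.20 for the first probe.

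Anxa6 and Anxa11 were the measured annexins that did not pass the test. Anxa6, the annexin with a duplicated core that is abundant in hepatocytes, read 1.21, 2.55 and 1.27 on LN111, 2.16, 2.25 and 2.57 on LN511, 1.80, 2.23 and 1.85 on Mat, and 1.66, 1.52 and 1.5 on MH. LN111 arrays lay on both sides of MH, while all LN511 and Mat arrays were above it. The difference was 0.43 ± 0.26 (95% confidence interval -0.15 to 1.00, limma adjusted p = 0.159). Anxa11, a partner of S100A6 with roles in cytokinesis and RNA granule transport, ranged from 3.15 to 4.24 on cultured arrays and read 3.64, 3.58 and 3.46 on MH. Its difference was 0.17 ± 0.15 (-0.17 to 0.51, adjusted p = 0.325), and its cultured and MH values overlapped.

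The Anxa6 and Anxa11 values depended on the scaling between arrays. With quantile normalization, Anxa6 was 1.13 (adjusted p = 0.00483) and Anxa11 1.18 (0.000197) above MH, and with no scaling 1.47 (0.00128) and 1.22 (0.00231). The median difference of all probes moved from -0.16 to 0.19 and 0.88 under these settings. The same settings left Anxa1 between 8.56 and 9.60 and Anxa5 between 5.80 and 6.84, so the 7 genes that rose did so under each scaling.

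Anxa10, an annexin best known from gastric epithelium, was the low member. Probe A_44_P1088266 was not well above background on any of the 9 cultured arrays and read -4.92, -5.00 and -5.16 on MH, where it was well above background on 2 of 3 arrays. Set against the lowest scaled signals measurable on the cultured arrays, the MH mean was 2.12-fold higher. That mean includes the MH array not above background, and its size rests on the scaling, so no least difference is settled. The probe was not tested in the main fit, since no group had 3 arrays above background. With no filter both Anxa10 probes were called lower in culture than in MH, where 21074 of 45489 probes were called lower. Without MH replicate 3, A_44_P1088266 entered the test and was also called lower, beside 9376 of 23905 probes. These calls rest on cultured signals that were not above background. The probe of the printed sequence, A_44_P265003, was not well above background on any of the 12 arrays.

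**Figure D2:**
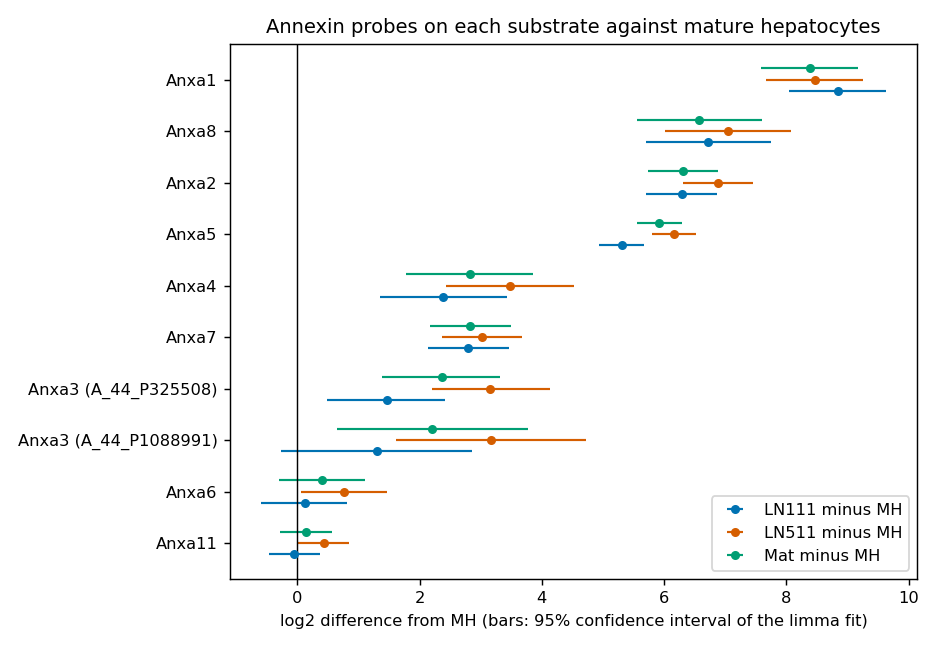
Difference from MH of the 10 tested annexin probes on each substrate (x axis, log2; bars are 95% confidence intervals of the limma fit), ordered by the cultured mean. Anxa1 differed by 8.38 to 8.84, while the intervals of Anxa11 and Anxa6 on LN111 and Mat and of Anxa3 probe A_44_P1088991 on LN111 include 0. Under quantile normalization Anxa6 and Anxa11 passed the test on LN511 and Mat, and Anxa11 on LN111.

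Within slide 1, where Mat replicates 1 and 2 could be set against MH directly, the same 8 annexin probes passed the test. Of all 23674 probes tested in that fit, 14491 were called, 5826 higher and 8665 lower on Mat. There Anxa1 was 8.40 ± 0.38 above MH (limma adjusted p = 9.65e-05), Anxa2 6.27 ± 0.33 (0.000137), Anxa5 5.92 ± 0.21 (5.73e-05), Anxa8 6.68 ± 0.48 (0.000323) and Anxa4 3.00 ± 0.37 (0.0016).

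Cell markers moved with this comparison. All 8 biliary and progenitor markers were well above background on every cultured array and 2 of 8 on every MH array, with Krt7, Krt19, Sox9, Spp1 and Cldn4 not above it on any MH array. Their summed scaled signal was 17.6 to 106 in cultured cells and 0.686 to 0.793 in MH. Hepatocyte markers summed to 120 to 382 in cultured cells and 770 to 891 in MH, with 6 of 8 well above background on every cultured array and Cyp3a2 on none. Mesothelial markers summed to 6.12 to 30.2 against 0.337 to 0.441, but the list did not move as one: Msln averaged 3.16 to 3.83 (log2) by substrate, while Lrrn4, measured on every array, fell by 1.62 in culture (limma adjusted p = 2.99e-05). Kupffer cell and macrophage markers summed to 0.186 to 3.39 in cultured cells against 30.9 to 33 in MH, with Marco, Cd5l and Adgre1 not above background on any cultured array. Sinusoidal endothelial markers summed to 0.0696 to 0.553 against 8.78 to 9.55, with Plvap, Lyve1 and Pecam1 not above it in culture. Markers of neutrophils and lymphocytes stayed low in both (0.0999 to 0.743 and 0.24 to 0.312). The part of these cells in the annexin differences was not tested. In such bulk RNA, a change in the share of a cell type and a change in RNA per cell cannot be told apart.

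Among the substrates, Anxa5 and 1 Anxa3 probe differed between the laminins. Against LN511, 2 of the 10 annexin probes were called on LN111, both lower, where 17.7% of all 22345 probes tested were called, 6.01% higher and 11.7% lower. LN111 against Mat gave no annexin call and no call over all probes (0%). By limma at an unadjusted p under 0.05, 1 annexin probe (Anxa5) and 2737 probes in all passed there. LN511 against Mat gave 0 annexin calls where 8.01% of all probes were called (6.88% higher and 1.13% lower), and Anxa2 alone had an unadjusted p under 0.05. Mat replicates 1 and 2 were on the other slide, and with slide as a block 83 probes in all and 0 annexin probes were called. The F test over the 3 substrates called 1 annexin probe, Anxa5, against 12.7% of all probes. These shares do not set the annexins above the background of the arrays.

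Anxa5 was 0.86 ± 0.15 lower on LN111 than on LN511 (1.81-fold, limma adjusted p = 0.00813; F test 0.0185), with all 3 arrays of each laminin apart. The 6 laminin arrays were on the same slide. LN111 was also below Mat in all 3 arrays, by 0.61 ± 0.15 (adjusted p = 0.312). Among the alternatives run, the laminin call was lost with no scaling alone (-0.36, adjusted p = 0.511), where the median of all probes moved from -0.15 to 0.34. The F test's call was lost without LN511 replicate 1, 2 or 3 (adjusted p of 0.0522, 0.0543 and 0.0526), with no filter (0.0529) and within slide 2 (0.0943).

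Anxa3 probe A_44_P325508 was 1.71 ± 0.48 lower on LN111 than on LN511 (3.26-fold, limma adjusted p = 0.0455), and A_44_P1088991 was 1.87 ± 0.68 lower (adjusted p = 0.0979). No LN111 array reached the lowest LN511 array of the first probe. This call sat at the threshold: it was lost with quantile normalization (0.0733), with no scaling (0.208), with no filter (0.0821), with the 2 groups fitted alone (0.0651), with slide as a block (0.0643), within slide 2 (0.0732) and without LN111 replicate 1 or 3, without any 1 LN511 array, or without Mat replicate 1 or 3 (0.0662 to 0.132).

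Anxa4 had the same arrangement without a call. It was 1.09 ± 0.51 lower on LN111 than on LN511 (limma adjusted p = 0.181), and the groups overlapped. Anxa3, Anxa4 and Anxa5 shared an order within the replicate numbers: in 3 of 3 numbers, LN511 was above Mat and Mat above LN111, for both Anxa3 probes, for Anxa4 and for Anxa5. The other annexin probes showed this order in 0 to 2 numbers, and how many of all probes showed it was not counted. The replicate number was also used as a block over the 3 substrates. LN511 then exceeded Mat by 0.96 in Anxa3 probe A_44_P1088991 (limma adjusted p = 0.0429), 0.81 in probe A_44_P325508 (0.0419) and 0.66 in Anxa4 (0.0452). Without the block these adjusted p were 0.476, 0.387 and 0.519. Whether the numbers pair is not settled: LN511 replicate 1 deviated with Mat replicate 3 as much as with Mat replicate 1 (r of 0.53 each). With no scaling, however, all 10 annexin probes were lower on LN511 than on Mat, by 0.14 to 1.01, as the median of all probes moved from 0.13 to -0.96.

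Anxa2 was 0.59 ± 0.20 lower on LN111 than on LN511 (limma adjusted p = 0.074) and 0.57 ± 0.20 higher on LN511 than on Mat (0.132), with no overlap in either comparison. Fitted with LN511 and Mat alone, the second difference had an adjusted p of 0.0475. For Anxa1, Anxa7 and Anxa8 the substrate differences were at most 0.47, and none passed. Anxa6 and Anxa11 were 0.65 ± 0.35 and 0.48 ± 0.20 lower on LN111 than on LN511 (adjusted p of 0.237 and 0.142), and the Anxa11 difference vanished with no scaling (0.02). LN111 replicate 2 held values nearer to LN511 in several annexins, and without it 5 annexin probes were called between the laminins, Anxa2 (-0.77, 0.0225) and Anxa6 (-1.09, 0.0101) among them. Calls over all probes rose as well, from 3956 of 22345 to 5129 of 22623.

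**Figure D3:**
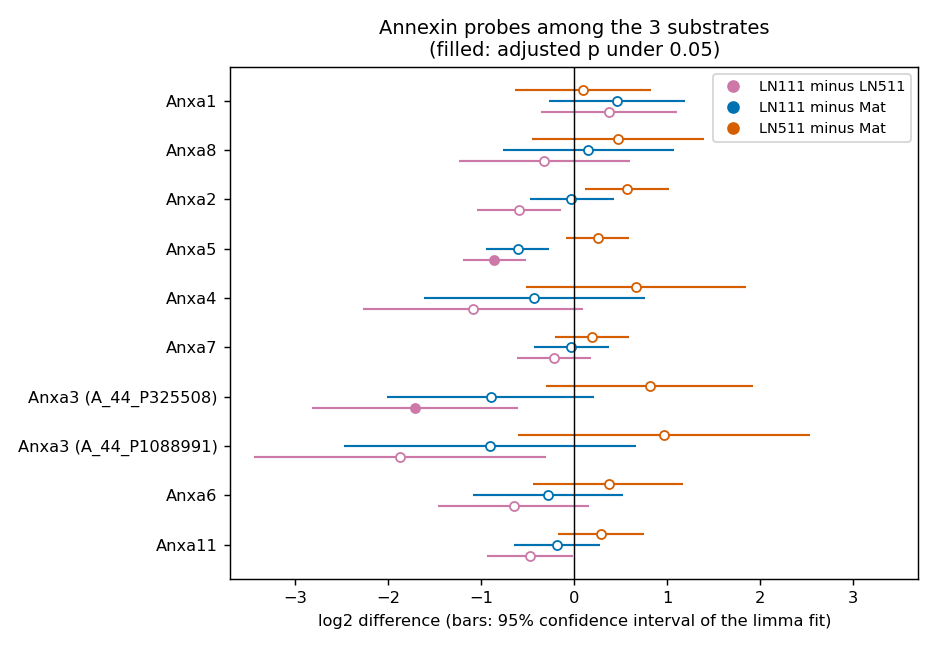
Differences among the 3 substrates for the 10 tested annexin probes (x axis, log2; bars are 95% confidence intervals of the limma fit; filled points have an adjusted p under 0.05). LN111 lies below LN511 for every probe but Anxa1, with calls for Anxa5 (-0.86) and an Anxa3 probe (-1.71); with no scaling neither was called, Anxa7, Anxa8 and Anxa11 changed sign, and LN511 lay below Mat for all 10.

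Markers of other cells also followed the substrate. Biliary and progenitor markers summed to 17.6, 52.1 and 19.1 on LN111, 70.5, 106 and 85.3 on LN511 and 40, 67.3 and 40.1 on Mat, with the same high replicate 2 as Anxa3 and Anxa4 and the same order of substrates. Of these 8 markers, 4 were called lower on LN111 than on LN511 and none higher. The summed stellate cell and fibroblast markers ran the other way, at 48.5, 52.4 and 81.5 on LN111, 10.8, 2.16 and 3.86 on LN511 and 29.5, 18.1 and 30.6 on Mat, against 2.83 to 3.89 in MH. Of 8 tested, 4 were called higher on LN111 than on LN511. Col1a1 was the brightest of the list on LN111 (mean log2 of 5.44). The list did not move as one: Lrat averaged -3.03 on LN111 and -1.96 on LN511, and Reln -0.82 and -0.72, neither called. Lum, a fibroblast matrix gene of that list, was not above background on any LN511 or MH array. The part of either cell group in the Anxa3 and Anxa5 differences was not tested.

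**Figure D4:**
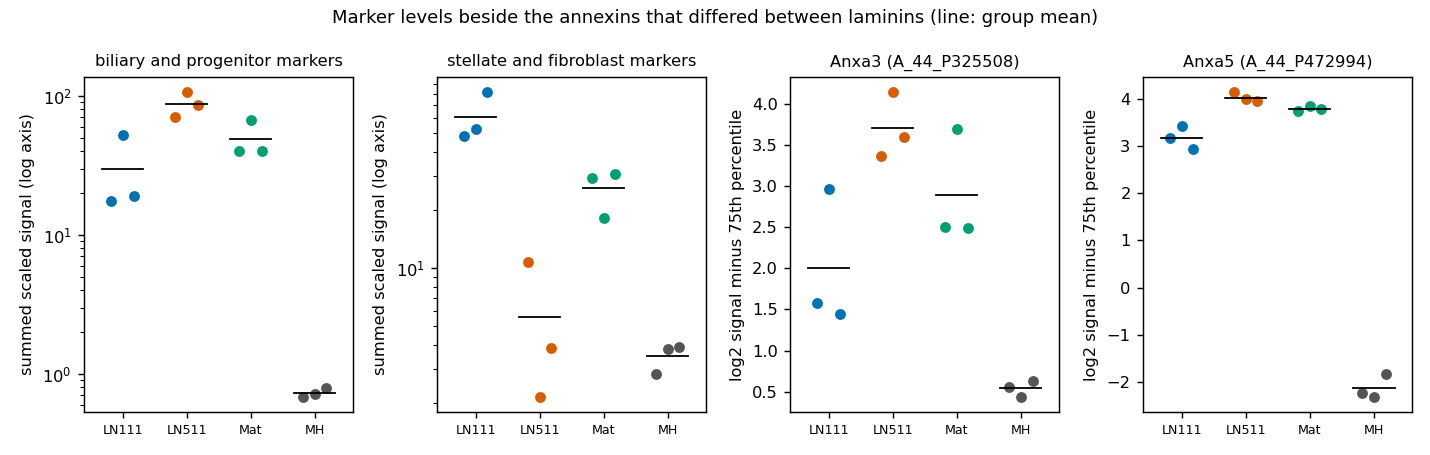
Summed scaled signal of 8 biliary and progenitor markers and 9 stellate cell and fibroblast markers (log axes), beside the log2 scaled signal of Anxa3 and Anxa5, on each array of the 4 groups (lines are group means). Summed biliary markers and both annexins were highest on LN511, at 70.5 to 106 for the markers, and summed stellate markers were highest on LN111, at 48.5 to 81.5. Of the stellate list, Lrat and Reln were not higher on LN111 than on LN511. The LN511 and Mat order of Anxa3 and Anxa5 turned round with no scaling.

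Known partners of annexins rose with them. Of 14 partner genes listed, 11 were tested, 8 rose in cultured cells and none fell, with a median difference of 6.89 against -0.16 for all probes, of which 72.4% were called, 31.2% higher and 41.2% lower. S100a10, the light chain of the annexin A2 complex, read 4.97, 4.59 and 5.14 on LN111, 5.05, 5.17 and 4.94 on LN511, 5.0, 5.01 and 5.02 on Mat, and -2.36, -1.79 and -1.57 on MH. Its difference of 6.89 ± 0.17 (limma adjusted p = 6.97e-10) was close to the 6.49 of Anxa2. Its means were 4.90, 5.05 and 5.01 on LN111, LN511 and Mat (adjusted p = 0.558 between the laminins). S100a11, a partner of annexins A1 and A2, was not above background on any MH array and was at least 157-fold higher in culture.

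S100a6, a partner of annexins A2 and A11, rose by 9.48 ± 0.34 (limma adjusted p = 5.56e-09). Ahnak, a large scaffold recruited by annexin A2 and S100A10, rose by 7.49 ± 0.33 (2.16e-08). S100a4, another small calcium-binding protein that binds annexin A2, was higher in culture (6.5e-09), with means of 5.90, 3.26 and 4.92 on LN111, LN511 and Mat. It was well above background on 1 of 3 MH arrays, so no size is given. Of these 5 genes it was the one that passed the test between laminins, 2.64 higher on LN111 than on LN511 (0.00992).

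**Figure D5:**
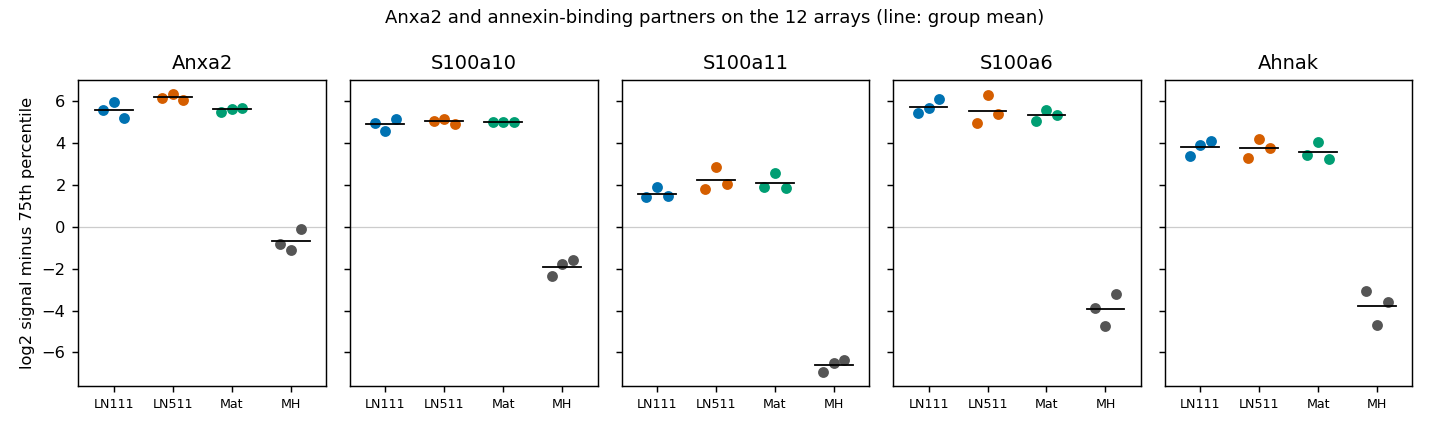
Log2 scaled signal (y axis) of Anxa2, S100a10, S100a11, S100a6 and Ahnak on the 3 arrays of each group (x axis; lines are group means). All 5 were above MH on every cultured array, by 6.49 for Anxa2 and 9.48 for S100a6; S100a11 was not above background in MH.

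Genes of plasminogen activation at the cell surface, the reaction that annexin A2 supports, moved in both directions: 6 of 12 tested rose and 3 fell (median 1.81), a share called near the 72.4% of all probes. Plat, the tissue plasminogen activator, rose by 7.44 ± 0.17 (limma adjusted p = 4.91e-10) and the urokinase receptor Plaur by 3.87 ± 0.28 (7.25e-07). S100a10, described above, also belongs to this list. Between laminins 3 of 11 tested were higher on LN111 and 1 lower, against 6.01% and 11.7% of all probes.

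Of 15 membrane repair genes tested, 7 rose and 2 fell (median 0.25), a smaller share called than the 72.4% of all probes. They included caveolin Cav1 (7.80 ± 0.46, limma adjusted p = 1.48e-07), its coat partner Cavin1 (at least 4.17-fold higher, not above background on any MH array), the calpain Capn2 (1.72 ± 0.12, 5.73e-07) and the ferlin Myof (3.23 ± 0.32, 7.29e-06). Phosphatidylserine exposure and binding genes were split, with 5 of 15 higher and 8 lower (median -0.75), beside 31.2% and 41.2% of all probes. The scramblase Xkr8 fell by 2.30 (limma adjusted p = 1.83e-07) and Timd4, a phosphatidylserine receptor of macrophages, was at least 17.6-fold lower, while the bridging protein Mfge8 rose by 3.28 ± 0.18 (9.37e-08). The macrophage markers that moved with Timd4 are given above.

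In the phospholipase A2 and eicosanoid list, the path that annexin A1 restrains, 5 of 10 tested rose and 2 fell (median 1.44), a share called near the 72.4% of all probes. Pla2g2a, a secreted phospholipase A2, was at least 13.8-fold higher in culture, the prostacyclin synthase Ptgis at least 15.2-fold and the lipoxygenase Alox5 at least 1.47-fold, and the leukotriene synthase Ltc4s was lower (limma adjusted p = 0.000123), with no size given since 2 of 9 cultured arrays measured it above background. Glucocorticoid response genes, listed because annexin A1 is one and the medium held dexamethasone, gave 7 of 13 higher and 3 lower (median 0.92), again near the 72.4% called of all probes. Fkbp5, a chaperone induced by glucocorticoids, rose by 2.81 ± 0.24 (2.58e-06), Cebpd by 1.94 ± 0.33 (0.000389) and Lcn2 by at least 75.1-fold, while the receptor gene Nr3c1 fell by 2.33 (1.77e-05). Of 14 endosome and exocytosis genes, 6 rose and 4 fell (median 0.41), near the same 72.4%, among them the sorting protein Hgs (1.31 ± 0.10 higher), the syntaxin Stx3 (at least 6.48-fold higher), the tetraspanin Cd63 (2.97 ± 0.28 higher) and the recycling GTPase Rab11a, which fell by 1.00. LN111 against Mat gave no call in any of these lists.

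Across the 12 arrays, the genes most like each high annexin were found by Pearson's r over 10676 genes, as a description in which the step between culture and MH sets most of the likeness. For Anxa1 they were S100a6 (r = 0.9985), the membrane protein Plp2 (0.9967) and the tetraspanin Cd9 (0.9964). Over the 9 cultured arrays alone, r with Anxa1 was 0.89, 0.64 and 0.63 for these. Anxa8, chosen by its measured difference of 6.78, whose rank fell under the other background settings, was most like Sema3b, S100a6 and Tagln2 (0.9956, 0.9951 and 0.9945, and 0.83, 0.77 and 0.87 in culture). Anxa2 was most like Insl6, Ifnlr1 and Plat (0.9982, 0.9975 and 0.9959), and Anxa5 most like Gprc5a, Ifnlr1 and Krt20 (0.9975, 0.9971 and 0.9969). Gprc5a kept the highest of these within culture (0.95).

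Among themselves, over the 9 cultured arrays, the annexins mostly ran together, given as a description over arrays that share slides and scaling. Anxa3 ran with Anxa4 (r = 0.94), Anxa6 (0.87), Anxa5 (0.86) and Anxa2 (0.82). Anxa7 ran with Anxa4 (0.82), Anxa8 (0.81) and Anxa3 (0.72), and Anxa8 with Anxa4 (0.69) and Anxa1 (0.67). Anxa1 did not follow most of them, with r of -0.57 against Anxa5, -0.19 against Anxa3 and -0.18 against Anxa2.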

How the data were processed

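Each sample's total RNA (100 ng, per the labels' protocols) was labelled with Cy3. The processed signal in the authors' deposited scanner files is a linear intensity with spatial and multiplicative detrending on and background correction off, per the file headers. The submitters' processing notes name Feature Extraction 10.7. The deposited value table holds the same linear intensity, uncentred and with no direction of its own (largest log2 difference 0.0072). Its column medians were 45.1 to 61.8 (LN111), 43.6 to 49 (LN511), 57.5 to 90.9 (Mat) and 23.6 to 27.6 (MH).

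From these, log2 values minus each array's 75th percentile were computed, leaving out control and outlier spots and averaging the spots of a probe (45489 probes kept, 109 lost). Of 45598 probes, 21109 were named by accession, 2631 by another accession, 5159 by symbol and 344 by an older symbol from RefSeq, and 16355 kept the file's name. limma 3.58.1 in R 4.3.3 was run on all 12 arrays for MH and on the 9 cultured arrays for substrates, at an adjusted p of 0.05, after tests on simulated data. The number of arrays limits the precision.

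Genes named were every annexin probe, up to 4 genes of smallest p per list, and S100a10, S100a11, S100a6 and Ahnak; 2 genes that this rule names are not reported here. Likeness was given for the 3 genes of largest difference from MH and any called by the F test, each with its 3 genes of highest r among those well above background on all 9 cultured arrays. A gene of a list stands for its probe of highest mean signal. The members and lists were chosen with earlier results of these data known. "At least N-fold" sets the brighter mean against the dimmer group's, where each dim array counts with the probe's signal or, if higher, the weakest signal it measured above background.

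Same-numbered arrays deviated together in every pair for LN511 and Mat (r of 0.53, 0.72 and 0.12), but the reported fits used no pairing. Arrays of unlike number reached similar values: 0.53 for LN511 replicate 1 with Mat replicate 3, and 0.19 for LN511 replicate 3 with Mat replicate 1. The pairing is therefore not settled. The same-numbered r was 0.47, 0.53 and 0.07 for LN111 with LN511 and 0.53, 0.70 and 0.08 for LN111 with Mat. These numbers, and those of all groups with MH, were not taken to pair either. The replicate block, run only as an alternative, covered every array of a fit. Alternatives were other background correction, scaling, filters, spot and probe handling, fits of the compared groups alone, replicate and slide blocks and leaving out each array.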

Additional observations from a re-analysis of the deposited data

Results flagged for a closer look

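Differences between the laminins were called for 2 of the 10 annexin probes, where 17.7% of all probes were called, 6.01% higher and 11.7% lower. Anxa3 probe A_44_P325508 differed by -1.71 on LN111 relative to LN511 (limma adjusted p = 0.0455, lower in 3 of 3 arrays, lost in several alternatives). Anxa5 differed by -0.86 (limma adjusted p = 0.00813, lower in 3 of 3 arrays). With no scaling the Anxa5 call was lost (-0.36, limma adjusted p = 0.511).

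A signal also appeared in an annexin outside the gene names used: Anxa13 probe A_44_P157134, named for an annexin of gut and kidney epithelium, averaged 0.01 over the cultured arrays. It read -1.11, 0.94 and -1.14 on LN111, -0.01, 1.21 and 0.48 on LN511, -0.68, 1.04 and -0.61 on Mat, and -7.45, -7.68 and -7.32 on MH. It was well above background on 9 of 9 cultured and 0 of 3 MH arrays, at least 39.9-fold higher in culture (limma adjusted p = 3.67e-07). Replicate 2 was the highest array of each substrate, and no substrate difference passed (adjusted p from 0.35 to 0.839).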

How the results depend on the processing

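With MH, annexin calls stayed within 1.5 times of the reported counts in every alternative run, from 6 probes (cultured, LN111 and Mat) to 10. For cultured against MH, the 10 calls with no filter and the 9 without MH replicate 3 include Anxa10 probes, lower in culture. The substrate counts moved. For LN111 against LN511 (2 called), the count was 1 with quantile scaling, no filter, only the groups compared, slide block or within slide 2, 0 with no scaling, and 1 to 5 without single arrays, the 5 being without LN111 replicate 2. For LN511 against Mat (0 called), it was 2 with no scaling and 1 with only the groups compared. The F test (1 called) gave 0 with no filter or within slide 2, and 0 to 4 without single arrays (0 without any 1 LN511 array, 4 without LN111 replicate 2). The replicate block gave 5 calls for LN111 against LN511, 3 for LN511 against Mat and 4 by the F test; it ended no annexin call and changed no other except Anxa6 on LN511 against MH. With it LN111 against LN511 gained Anxa2 (adjusted p = 0.0429), Anxa4 (0.00553) and the second Anxa3 probe (0.00314).

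With no scaling, LN511 minus Mat turned negative for every tested annexin probe. Values were Anxa1 -1.01, Anxa2 -0.53, Anxa3 -0.29 (A_44_P325508) and -0.14 (A_44_P1088991), Anxa4 -0.43 and Anxa5 -0.85. Anxa6 was -0.73, Anxa7 -0.90, Anxa8 -0.63 and Anxa11 -0.81. LN111 minus Mat turned for Anxa1 (-0.14) and Anxa8 (-0.45), and LN111 minus LN511 for Anxa7 (0.27), Anxa8 (0.18) and Anxa11 (0.02). LN111 minus MH turned for Anxa11 with quantile scaling (0.97) and no scaling (0.96), and LN511 minus Mat for Anxa1 with quantile scaling (-0.12). LN111 minus Mat of Anxa7 was 0.06 with slide block and within slide 2. Leaving out single arrays gave both signs for values near 0: LN111 minus MH of Anxa6 (-0.32 to 0.35) and Anxa11 (-0.17 to 0.13), LN111 minus Mat of Anxa7 (-0.10 to 0.09) and Anxa2 (-0.21 to 0.16), LN511 minus Mat of Anxa8 (-0.04 to 0.84) and Anxa1 (-0.22 to 0.45), and LN111 minus LN511 of Anxa8 (-0.69 to 0.19). Beyond the scaling itself, the cause was not tested. Anxa6 on LN511 against MH (adjusted p = 0.0525) passed with normexp (0.0158), quantile scaling (0.00497), no scaling (0.0145), the strict filter (0.0453), the groups alone (0.00505), the replicate block (0.0463) and without LN111 replicate 1, 2 or 3 (0.0422, 0.00229 and 0.0474).

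Over all probes, LN511 against Mat gave 1790 calls, against 5031 with normexp, 13293 with no scaling, 973 with the strict filter, 2934 with the replicate block, 83 with slide block, 100 within slide 2, and 708, 1115 and 945 without Mat replicates 1, 2 and 3 and 910 and 1029 without LN511 replicates 2 and 3. LN111 against LN511 gave 3956, against 2374 with no scaling, 2304 with the groups alone, 5992 with the replicate block and 2116 within slide 2. It gave 5129 without LN111 replicate 2, and 2480 and 2201 without LN511 replicates 2 and 3. The F test gave 2837, against 4446 (normexp), 7449 (no scaling), 1759 (strict filter), 4774 (replicate block), 1542 (slide block), 929 (within slide 2), 1674, 1353 and 1324 (without LN511 replicates 1, 2 and 3) and 1636 (without Mat replicate 1). LN111 against Mat gave 0, against 1 with no scaling, 39 within slide 2 and up to 8 without single arrays. Cultured against MH gave 17129, and 28611 with no filter and 11317 with the strict one; LN111 against MH 15649, and 24273, 10390 and 10002 with no filter, the strict filter and slide block; LN511 against MH 15873, and 10324 and 10317 with the strict filter and slide block; Mat against MH 15731, and 28983 with no filter. Signal near background limits Anxa8 and the weaker Anxa3 probe in MH, and both Anxa10 probes.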

Other observations

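Of the 3 annexin probes that the gene names did not take, the second Anxa13 probe and a probe that the file names by a transcript identifier and describes as Anxa9 were not well above background on any of the 12 arrays.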
